A study of Saccharomyces cerevisiae with 12 samples.

Results

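The comparison set yeast cells lacking SLH1 directly against the cells of the libraries labelled ski2-delta, with no wild type (WT) between them. It used 4 of the 12 libraries of the study, chosen by the strain in their labels: 2 of slh1-delta and 2 labelled ski2-delta, called the ski2-labelled libraries below. All rows of the deposited table were used except the ERCC spike-ins, which left 10799 features. The study measured rRNA-depleted total RNA by RNA-seq in strains deleted for single RNA helicase genes, and its title asks whether Xrn1-sensitive long noncoding RNAs (XUTs) depend on those helicases. The slh1-delta strain is BY4741 (MATa his3Δ1 leu2Δ0 met15Δ0 ura3Δ) with SLH1 replaced by kanMX4. The other strain is the same background with, by its label, SKI2 replaced by kanMX4, and WT is BY4741 with no such deletion. All 3 groups were grown in YPD, a rich glucose medium, at 30°C to mid-log phase (OD600 0.5), with 2 biological replicates each. Whether each deletion is 1 clone is not given in the sources used here.

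Slh1 is an RNA helicase of the complex that splits collided ribosomes on stalled mRNAs, an early step of ribosome quality control. Ski2 is the helicase of the Ski complex, which threads mRNA into the cytoplasmic exosome for decay from the 3′ end. Dbp1 is a DEAD-box helicase closely related to Ded1, which helps the small ribosomal subunit scan along 5′ leaders.

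The slh1-delta libraries held 14.6 and 17.2 M reads outside the spike-ins, against 8.60 and 12.2 M in the ski2-labelled libraries. Spike-ins took 2.69% and 2.39% of reads in slh1-delta, against 2.19% and 2.47% in the ski2-labelled libraries. Genes of the a mating type were expressed in all 4 libraries, with a summed density of 24.3 and 23.5 in slh1-delta and 28.1 and 24.2 in the ski2-labelled libraries. The summed density of 8 alpha or diploid markers was 0.112 and 0.143 in slh1-delta and 0.137 and 0.143 in the ski2-labelled libraries. Most of it was SAG1, with 304 and 357 reads in slh1-delta and 195 and 287 in the ski2-labelled libraries. MATALPHA2 had 6 and 14 reads in slh1-delta and 4 and 10 in the ski2-labelled libraries. HMLALPHA1 and HMLALPHA2 were at 0 in all 4. Of the genes that BY4741 lacks in whole or in part, MET17 had no reads in any of the 4, and LEU2 and URA3 had 1 read in 1 library each. HIS3, of which his3Δ1 removes only a part, had 512 and 588 reads in slh1-delta and 267 and 426 in the ski2-labelled libraries.

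The deleted genes were looked at first. SLH1 (YGR271W, chromosome VII, 1031791 to 1037694 in build R64) had 1 and 0 reads in slh1-delta, against 1149 and 1388 reads in the ski2-labelled libraries. Of the compared groups only slh1-delta lacks the SLH1 transcript, and the density of the ski2-labelled libraries was 3668 times that of slh1-delta (95% counting interval 658 to 144923). SKI2 (YLR398C) had 2077 and 1930 reads in slh1-delta and 1352 and 1742 reads in the ski2-labelled libraries. As densities these were 0.459 and 0.375 in slh1-delta, against 0.497 and 0.439 in the ski2-labelled libraries, so the groups overlap and the log2 difference of -0.17 (standard error 0.11) did not pass (limma, adjusted p = 0.51). DBP1 (YPL119C) had 140 and 126 reads in slh1-delta, against 2 and 4 reads in the ski2-labelled libraries, a ratio of slh1-delta to the other group of 30.7 (interval 13.9 to 84.3). The ski2-labelled libraries therefore nearly lack the DBP1 transcript and hold SKI2, which stood at 109% of its WT mean there while DBP1 stood at 2.72%. SKI2 was nearly absent in the libraries labelled dbp1-delta instead, with 3 reads over both, or 0.0885% of WT. No stretch of 50 nt of the DBP1 reading frame occurs in DED1 (0 of 1805). The intervals cover counting error only. The label is kept as a name, and every direction given belongs to the libraries so labelled.

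**Figure D1:**
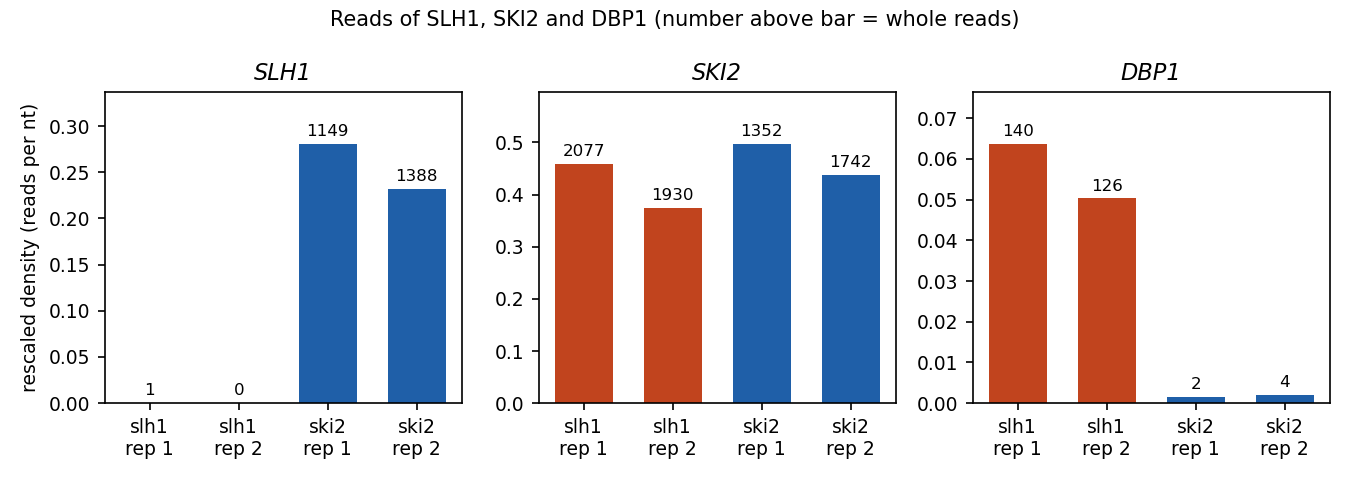
Rescaled density (reads per nucleotide) of SLH1, SKI2 and DBP1 in each library, slh1-delta in red and the ski2-labelled libraries in blue, with whole reads printed above the bars. SLH1 is missing from slh1-delta (1 and 0 reads), DBP1 is nearly missing from the ski2-labelled libraries (2 and 4 reads), and SKI2 is present in all 4.

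The other helicase genes of the study did not pass in this comparison: ECM32 had a log2 difference of -0.20 (standard error 0.13) and DHH1 one of -0.22 (0.06). Next to SLH1, YTA7 stood at -0.14 (0.10) and EFG1 at 0.14 (0.23), and neither passed. Next to DBP1, YPL119C-A stood at -0.75 (0.32) and did not pass. On the other side of DBP1, MRP51, a protein of the mitochondrial small ribosomal subunit, was higher in slh1-delta. Its density was 0.668 and 0.688 in slh1-delta, against 0.475 and 0.513 in the ski2-labelled libraries and 0.638 and 0.651 in WT. The log2 difference was 0.45 (standard error 0.07, limma adjusted p = 0.0159), and MRP51 passed in 1 of the 4 fits that each leave out 1 library, the one without the second ski2-labelled library. MRP51 begins beside the replaced gene, and a part of the replacement in its level was not tested.

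Across 9433 features with enough signal, limma called 127 different at an adjusted p of 0.05, or 1.35%: 71 higher (0.753%) and 56 lower (0.594%) in slh1-delta. Among 5622 protein-coding genes, 22 were higher (0.391%) and 49 lower (0.872%), and 2830 had a log2 difference above 0. Of the 127 calls, 39 differed by at least 2-fold, 28 of them higher and 11 lower. The groups overlapped in density for 0 of the 127, but 4133 features, or 43.8% of all tested, had groups that did not overlap. Replicates of slh1-delta differed by a median of 0.12 on the log2 scale over protein-coding genes and those labelled ski2-delta by 0.13, and the median absolute difference between the groups was 0.12. The last value compares means of 2 libraries and the others single libraries. Of the 9433 features, 1407 had an unadjusted p under 0.05. A permutation test of 2 against 2 libraries cannot go below p = 0.333, so every call rests on the spread that limma pools over features and all 12 libraries. A fit of the 4 libraries alone called 12 higher and 3 lower.

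**Figure D2:**
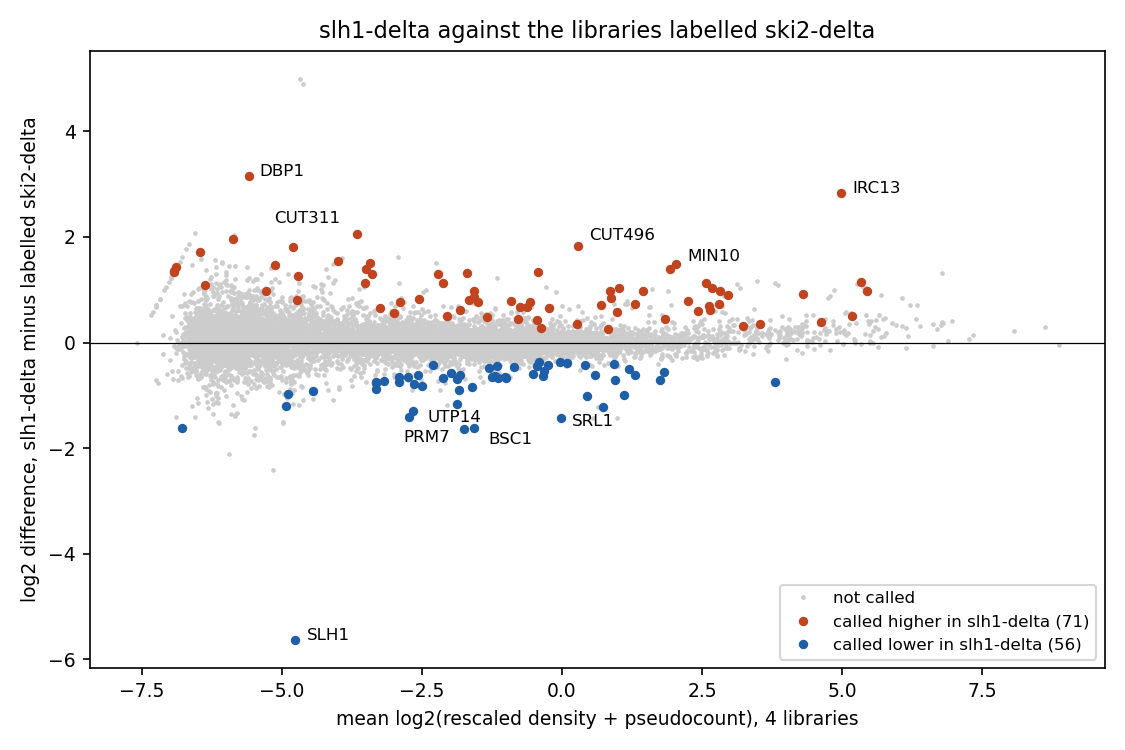
Each point is 1 feature, with its mean log2 density over the 4 libraries on the horizontal axis and the log2 difference, slh1-delta minus the ski2-labelled libraries, on the vertical axis. The 71 features called higher are red and the 56 called lower are blue, and SLH1 and DBP1 lie far from 0 with IRC13.

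The zero of these differences depends on the scaling. Densities were rescaled so that the typical protein-coding gene is level, and the median log2 difference of all features was then 0.03. As deposited the median was -0.46, and the calls became 49 higher and 4646 lower, so that higher calls made up 1.04% in place of 55.9%. With spike-in factors the median was -0.08, with 14 higher and 16 lower, and quantile normalization gave 51 higher and 73 lower. The spike-in factors of the WT libraries lay far apart, at 0.506 and 1.21, against 0.868 and 0.972 from protein-coding genes. WT enters the pooled spread, and the part of this in the counts with spike-in factors was not tested. The count also rests on single libraries. Without the second slh1-delta library 7 were higher and 4 lower, without the first 36 and 28, without the first ski2-labelled library 49 and 15, and without the second 36 and 25.

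Genes for making ribosomes were among those lower in slh1-delta. Of 91 ribosome biogenesis genes, 9 were lower and 0 higher, 67 lay below 0, and their median was -0.18. Over all features 0.594% were lower and the median was 0.03. As deposited the median was -0.71, against -0.46 over all features. UTP14, a subunit of the processome that folds and cuts the pre-rRNA of the small subunit, had densities of 0.103 and 0.0893 in slh1-delta, against 0.254 and 0.234 in the ski2-labelled libraries and 0.226 and 0.179 in WT. The groups lie well apart, with a log2 difference of -1.30 (standard error 0.14, limma adjusted p = 0.00315). NOP4, a nucleolar protein of the large subunit's assembly, had 0.207 and 0.190 in slh1-delta, against 0.356 and 0.397 in the ski2-labelled libraries, a difference of -0.90 (0.11, limma adjusted p = 0.00664). CBF5, the pseudouridine synthase of H/ACA snoRNPs, had 1.48 and 1.52 in slh1-delta, against 2.58 and 2.33 in the ski2-labelled libraries, a difference of -0.71 (0.09, limma adjusted p = 0.00580). WT lay between the groups for these 3 genes. The other 6, named after their values were seen, were LSG1 (-0.67), SPB1 (-0.64), NOP58 (-0.62), PWP2 (-0.54), SDA1 (-0.45) and RIX7 (-0.44), which act in the assembly, modification or release of pre-ribosomes.

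A list of RNA helicase genes held mostly helicases of pre-ribosomes and splicing, but also ECM32 and the mitochondrial helicases MSS116, SUV3, MRH4 and IRC3. Of its 32 genes 3 were lower and 0 higher, 28 were below 0, and the median was -0.21. Over all features 0.594% were lower and the median was 0.03. DRS1, a DEAD-box helicase of the large subunit, had densities of 0.233 and 0.249 in slh1-delta, against 0.440 and 0.433 in the ski2-labelled libraries (-0.84, standard error 0.11, limma adjusted p = 0.00701). DBP7, also of the large subunit, was lower by -0.62 (0.12), and HCA4, of the small subunit, by -0.46 (0.09), both with a limma adjusted p = 0.0362. With spike-in factors 0 of the 32 were lower and their median was -0.33, against -0.08 over all features. With a trend with gene length taken off, a step chosen after seeing the data, 1 was lower and the median was -0.16. Their median counted length was 2437 nt, against 1465 nt for all protein-coding genes. Of the 6 genes named with full values in these lists, UTP14 passed in all 4 fits that each leave out 1 library. NOP4, CBF5 and DRS1 passed in 3, failing without the second slh1-delta library, and DBP7 and HCA4 passed in none. The count of 9 ribosome biogenesis genes was 1 without the second slh1-delta library, 5 without the first, 5 without the first ski2-labelled library and 4 without the second. It was 0 with spike-in factors. The median of the 91 genes was -0.09 without the second ski2-labelled library, -0.13 without the first slh1-delta library, -0.21 without the second and -0.24 without the first ski2-labelled library.

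Many yeast ribosome biogenesis genes carry upstream the PAC element, whose core is GATGAG, and the RRPE element, whose core is AAAATTTT. Both cores were searched on both strands in a window of 150 bases that starts 250 bases before each start codon. GATGAG was in 58 of the 91 ribosome biogenesis genes (63.7%), against 11.4% of 6020 protein-coding genes. AAAATTTT was in 66 of the 91 (72.5%), against 6.56% of all. Among the 9 that were lower, 6 held the first and 7 the second, close to the shares of the whole list. Of 137 cytosolic ribosomal protein genes, 11 held GATGAG and 9 AAAATTTT. The windows of the 4 genes described in full above are shown for their arrangement of these letters, from RefSeq, build R64, plus strand, with the matches on either strand in capitals (CTCATC is GATGAG read on the other strand).
UTP14 chrXIII:82840-82989: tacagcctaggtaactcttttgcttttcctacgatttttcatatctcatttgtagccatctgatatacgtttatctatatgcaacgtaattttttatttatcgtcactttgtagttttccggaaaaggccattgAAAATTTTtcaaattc
NOP4 chrXVI:469689-469838: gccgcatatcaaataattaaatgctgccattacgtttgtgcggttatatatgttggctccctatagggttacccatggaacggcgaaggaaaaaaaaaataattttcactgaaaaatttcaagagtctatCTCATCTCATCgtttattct
DRS1 chrXII:131479-131628: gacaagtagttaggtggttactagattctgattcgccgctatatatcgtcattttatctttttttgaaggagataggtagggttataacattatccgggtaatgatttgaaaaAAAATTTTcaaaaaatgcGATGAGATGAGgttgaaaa
CBF5 chrXII:505884-506033: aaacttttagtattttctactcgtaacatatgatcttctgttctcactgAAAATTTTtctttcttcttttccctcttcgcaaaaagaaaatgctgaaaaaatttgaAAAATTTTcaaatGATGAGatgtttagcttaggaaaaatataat
DRS1 and CBF5 hold both cores, UTP14 holds AAAATTTT alone and NOP4 holds overlapping copies of GATGAG alone. A match describes the letters and not the binding of a factor.

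Among ribosomal protein genes the calls went the other way. Of 137 genes of the cytosolic ribosome, 130 lay above 0 with a median of 0.20, and 5 were higher and 0 lower. Over all features 0.753% were higher, and 2830 of 5622 protein-coding genes lay above 0. With values as deposited the median was -0.34, against -0.46 over all features, and with spike-in factors 0.08, against -0.08. RPS22B had densities of 6.57 and 6.63 in slh1-delta, against 4.38 and 4.37 in the ski2-labelled libraries, a log2 difference of 0.59 (standard error 0.09, limma adjusted p = 0.0182). RPL41A had 45.2 and 41.6 in slh1-delta, against 33.7 and 27.6 in the ski2-labelled libraries (0.51, standard error 0.10, limma adjusted p = 0.0438). RPS28A stood at 27.5 and 28.9 in slh1-delta, against 22.7 and 20.5 in the ski2-labelled libraries (0.39, standard error 0.08, limma adjusted p = 0.0460). RPS17B (0.35) and RPL43B (0.32), named after their values were seen, also passed. Each of the 5 has a near-identical copy elsewhere in the genome, and how reads were split between copies is not given in the sources used here. As deposited RPL41A and RPS28A turned to -0.03 and -0.15. Without the second slh1-delta library 0 of the 137 passed, without the first 8, without the first ski2-labelled library 1 and without the second 0. The median was 0.11 without the second slh1-delta library and 0.30 without the first. After a trend with gene length was taken off, a step chosen after seeing the data, 1 passed and the median was 0.13.

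**Figure D3:**
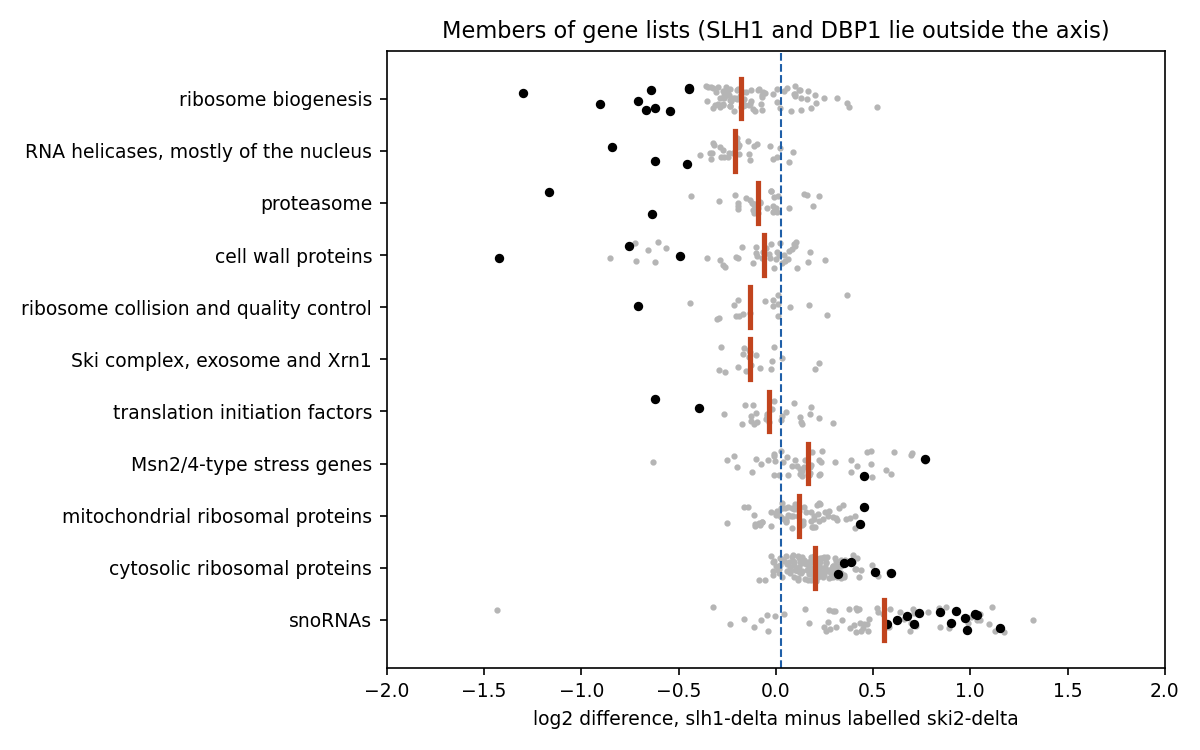
Log2 difference (slh1-delta minus the ski2-labelled libraries) of each member of 10 gene lists and of the 76 snoRNAs, as points, with called members in black, the median of each list as a red bar and the median of all features as a dashed line. Ribosome biogenesis genes (median -0.18) lie left of the line, and ribosomal protein genes (0.20) and snoRNAs (0.56) right of it.

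Gene length moved with the difference, and ribosomal protein genes are short. The median log2 difference of protein-coding genes was 0.12 in the shortest of 5 equal groups (84 to 865 nt counted) and -0.09 in the longest (2428 to 15049 nt). The shortest group held 16 of the 22 higher calls and 3 of the 49 lower ones, and the longest held 0 and 26. The median counted length was 725 nt for genes that were higher and 2441 nt for genes that were lower, against 1465 nt for all protein-coding genes. With the length trend taken off each library, 45 features were higher and 42 lower, and 76 of the 127 calls remained. Ribosome biogenesis genes then had a median of -0.16 with 6 of 91 lower. The part of length in each gene's result was not tested.

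**Figure D4:**
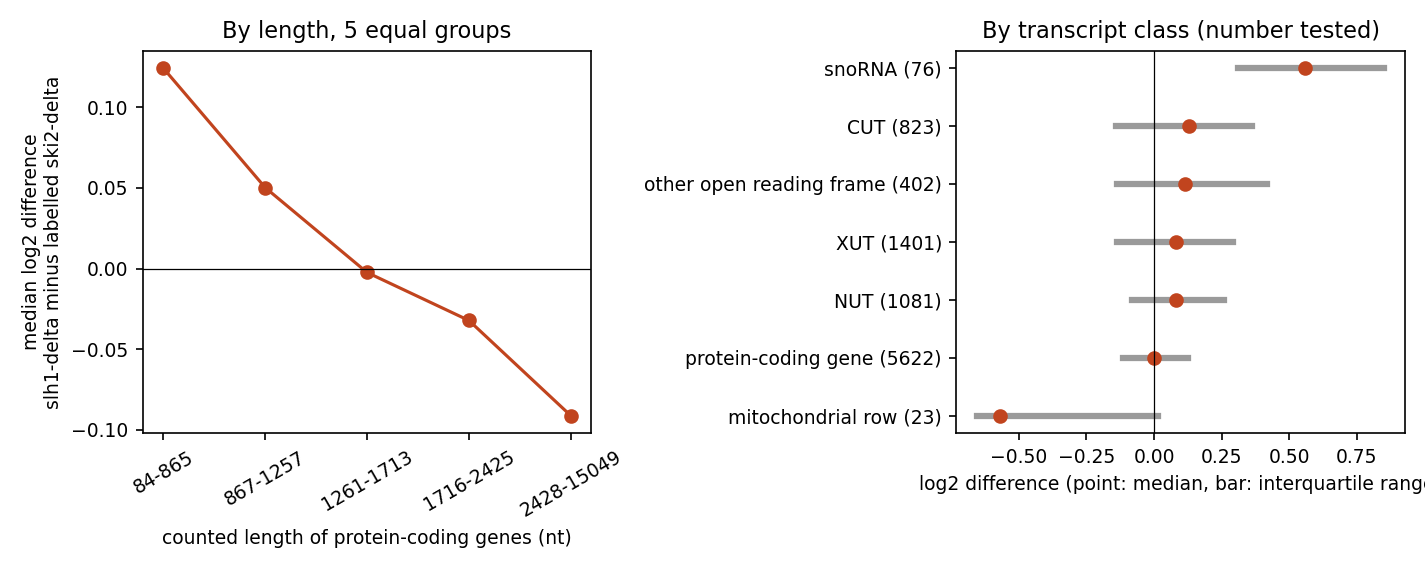
Left, median log2 difference (slh1-delta minus the ski2-labelled libraries) of protein-coding genes in 5 equal groups by counted length, which goes from 0.12 in the shortest to -0.09 in the longest. Right, median (point) and interquartile range (bar) of the same difference by transcript class, with snoRNAs highest and mitochondrial features lowest. Some of the mitochondrial features share reads.

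The small nucleolar RNAs, which guide modification and processing of rRNA, were the class with the highest median. Of 76 snoRNAs, 13 were higher (17.1%, against 0.753% over all features) and 0 lower, 67 lay above 0, and the median was 0.56. As deposited the median was 0.02, with 9 higher and 8 lower, so the deposited values hold this class close to level. With spike-in factors the median was 0.43, with 0 higher and 1 lower. SnR76 had densities of 8.93 and 9.45 in slh1-delta, against 4.20 and 4.80 in the ski2-labelled libraries and 9.60 and 8.71 in WT, a log2 difference of 1.03 (standard error 0.11, limma adjusted p = 0.00366). SnR46 had 59.7 and 62.0 in slh1-delta, against 35.2 and 26.9 in the ski2-labelled libraries and 59.8 and 54.0 in WT (0.98, standard error 0.15, limma adjusted p = 0.0159). Both snoRNAs, named after their values were seen, stood near the WT level in slh1-delta and apart from it in the other group. The count of 13 was 1 without the second slh1-delta library, 4 without the first, 17 without the first ski2-labelled library and 5 without the second. With the length trend taken off, 6 were higher and the median was 0.48.

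Of the 76 snoRNAs, 8 lie inside protein-coding genes, with a median of 0.56, and 68 lie outside, with a median of 0.54. SnR24 stood at 0.97 while its host ASC1 stood at 0.36 and did not pass. SnR39 stood at 0.57 while its host RPL7A stood at 0.11 and did not pass. SnR44 stood at 0.93, and its host RPS22B was called higher at 0.59. The snoRNA takes up 211 of the 876 nt of RPS22B, so its reads may be counted in the host. SnR18 in EFB1 (0.59 and 0.02) and snR59 in RPL7B (0.47 and 0.02) did not pass, nor did their hosts. SnR191 in NOG2 stood at 0.55 beside 0.38, snR54 in IMD4 at 0.15 beside 0.10, and snR38 in TEF4 at -0.01 beside 0.07. Whether a snoRNA differed from its host was not tested.

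IRC13 (YOR235W, chromosome XV, 779870 to 780184), a dubious reading frame, showed the next largest difference after SLH1 and DBP1 among called protein-coding rows. It had densities of 77.9 and 91.2 in slh1-delta, against 10.2 and 13.6 in the ski2-labelled libraries and 85.3 and 90.5 in WT. Low values were not particular to the ski2-labelled libraries. Over the libraries outside the 2 compared groups, WT included, IRC13 ran from 14.0 to 91.2. The log2 difference was 2.83 (standard error 0.17, limma adjusted p = 3.38e-05), and it passed in all 4 fits that each leave out 1 library. IRC13 shares its last 78 of 315 nt, on the same strand, with the first bases of SNR17A (780107 to 780596), which encodes the U3 snoRNA, so reads cannot be assigned between them here. The U3 gene itself had densities of 420 and 448 in slh1-delta, against 333 and 376 in the ski2-labelled libraries, and at 0.30 (0.15) it did not pass (limma adjusted p = 0.388). The shared bases are shown because they are where the annotations meet, from RefSeq, build R64, plus strand.
IRC13 and SNR17A chrXV:780107-780184: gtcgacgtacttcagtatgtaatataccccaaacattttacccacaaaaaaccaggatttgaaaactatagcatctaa

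Other protein-coding genes that were higher included MIN10 and COX5B. MIN10, which encodes a small mitochondrial protein, had densities of 6.49 and 7.21 in slh1-delta, against 2.60 and 2.28 in the ski2-labelled libraries and 6.80 and 5.65 in WT. Over the libraries outside the 2 compared groups, WT included, MIN10 ran from 2.93 to 6.80. Its log2 difference was 1.49 (standard error 0.10, limma adjusted p = 9.85e-05), and it passed in all 4 fits that each leave out 1 library. The reading frames YBR032W (0.98, limma adjusted p = 0.0185) and YBL071C-B (0.68, limma adjusted p = 0.0264) were higher, each passing in 1 of those 4 fits. COX5B is an alternative subunit of cytochrome c oxidase made when oxygen is low. It had 0.451 and 0.473 in slh1-delta, against 0.338 and 0.321 in the ski2-labelled libraries (0.48, standard error 0.08, limma adjusted p = 0.0202). In WT it had 0.377 and 0.332, nearer to the ski2-labelled libraries. ROX1 and IXR1 encode regulators of hypoxic genes known to repress COX5B. ROX1 had 0.0700 and 0.0681 in slh1-delta, against 0.134 and 0.128 in the ski2-labelled libraries and 0.0680 and 0.0631 in WT (-0.87, standard error 0.17, limma adjusted p = 0.0427). IXR1 had 0.137 and 0.121 in slh1-delta, against 0.217 and 0.245 in the ski2-labelled libraries and 0.147 and 0.136 in WT (-0.81, standard error 0.12, limma adjusted p = 0.0159). WT thus had ROX1 and IXR1 near the slh1-delta level and COX5B nearer to the ski2-labelled level. A link between the levels of these genes was not tested. Against 1.35% of all features, 2 of 16 hypoxic and anaerobic genes were called, COX5B and ROX1. They passed in none of the fits that leave out 1 library, and IXR1 in 2, failing without the second library of either group. As deposited COX5B turned to -0.05.

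Among genes of the Msn2/4 stress response, 2 of 54 were higher and 0 lower, with a median of 0.17. Over all features 0.753% were higher and the median was 0.03, the measure for each list of this paragraph. HOR7, a gene induced by high osmolarity, had densities of 4.39 and 3.95 in slh1-delta, against 2.94 and 3.15 in the ski2-labelled libraries and 2.74 and 2.55 in WT (0.45, standard error 0.07, limma adjusted p = 0.0185). RTC3 was higher by 0.77 (0.16, limma adjusted p = 0.0495). GLC3, the glycogen branching enzyme, was the only one of 20 glycogen and trehalose genes called, at 0.66 (0.13, limma adjusted p = 0.0453). GRX2, a glutaredoxin, was the only one of 30 antioxidant genes, at 0.26 (0.05, limma adjusted p = 0.0478), and it overlaps EMI1 on the other strand by 47 nt. NDE2, an external NADH dehydrogenase of mitochondria, and COX5B were the 2 of 44 respiratory chain genes, NDE2 at 0.80 (0.16, limma adjusted p = 0.0467). Of 70 genes listed for mitochondrial ribosomal proteins, MRP51 and MRP8 (0.43, standard error 0.06) were higher and 57 lay above 0. AIM18, a mitochondrial protein, was higher by 0.50 (0.09). HOR7, RTC3, GRX2, NDE2 and AIM18 passed in none of the fits that leave out 1 library, GLC3 in 1 and MRP8 in 2. As deposited HOR7, GRX2, MRP8, MRP51 and AIM18 turned to -0.09, -0.27, -0.10, -0.08 and -0.03.

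Some genes of the cell surface were lower in slh1-delta. SRL1, a cell wall mannoprotein, had densities of 0.712 and 0.504 in slh1-delta, against 1.63 and 1.59 in the ski2-labelled libraries and 0.906 and 0.675 in WT. Its log2 difference was -1.42 (standard error 0.19, limma adjusted p = 0.00845). CWP2, a major mannoprotein of the wall, had 11.97 and 9.71 in slh1-delta, against 19.0 and 17.5 in the ski2-labelled libraries and 9.77 and 10.6 in WT (-0.76, standard error 0.13, limma adjusted p = 0.0202). SUN4, a wall protein of cell separation, had 1.91 and 1.97 in slh1-delta, against 2.76 and 2.71 in the ski2-labelled libraries and 1.87 and 1.98 in WT (-0.49, standard error 0.06, limma adjusted p = 0.00425). High values were not particular to the ski2-labelled libraries. Outside the 2 compared groups the highest library values were 1.69 for SRL1, 25.4 for CWP2 and 3.21 for SUN4. For these 3 genes slh1-delta stood nearer to WT than the other group did. They were the 3 of 46 cell wall genes called, against 0.594% lower over all features, with a list median of -0.06. AGA1, the anchor subunit of a-agglutinin in mating, was the only one of 30 listed pheromone response genes called. The list left out PRM7, a gene induced by pheromone that was called lower and is described below. AGA1 had 0.0916 and 0.0837 in slh1-delta, against 0.299 and 0.194 in the ski2-labelled libraries and 0.163 and 0.184 in WT (-1.41, standard error 0.21, limma adjusted p = 0.0159). SUN4 passed in all 4 fits that leave out 1 library and SRL1 in 3, failing without the second slh1-delta library. CWP2 passed only without the first slh1-delta library and AGA1 only without the second ski2-labelled library.

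**Figure D5:**
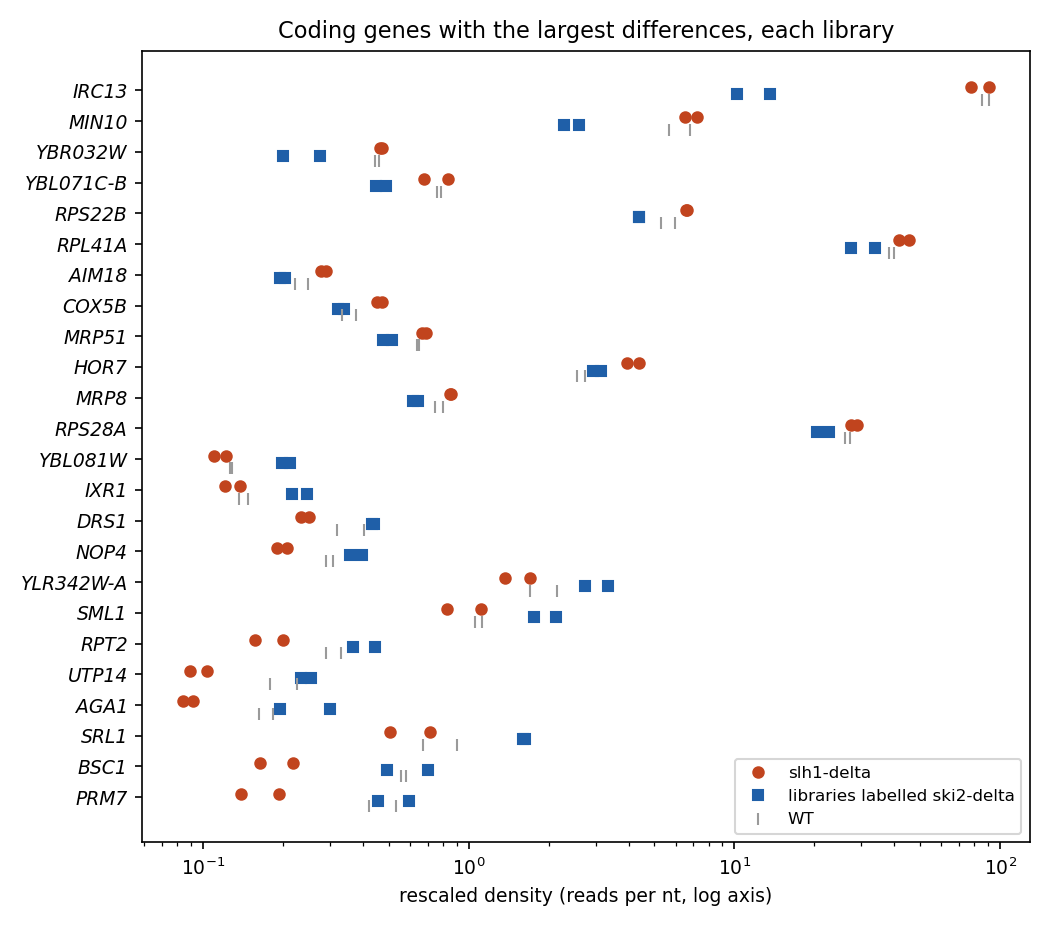
Rescaled density (reads per nucleotide, log axis) of the 24 named protein-coding genes with the largest differences above a floor of expression, in each library of slh1-delta (red circles), of the ski2-labelled libraries (blue squares) and of WT (grey ticks). The slh1-delta and ski2-labelled values of each gene do not overlap, and the WT ticks stand near slh1-delta for some genes such as IRC13 and near the other group for some such as PRM7.

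The protein-coding genes with the largest lower calls after SLH1 were PRM7 (YDL039C) and BSC1 (YDL037C), which lie close together on chromosome IV. PRM7, a gene induced by pheromone, had densities of 0.193 and 0.139 in slh1-delta, against 0.597 and 0.454 in the ski2-labelled libraries and 0.422 and 0.531 in WT (-1.64, standard error 0.27, limma adjusted p = 0.0185). BSC1 had 0.217 and 0.164 in slh1-delta, against 0.701 and 0.492 in the ski2-labelled libraries and 0.583 and 0.555 in WT (-1.61, standard error 0.23, limma adjusted p = 0.0129). Here WT stood with the ski2-labelled libraries and slh1-delta apart. Low values were not particular to slh1-delta. Over the libraries outside the 2 compared groups, WT included, PRM7 ran from 0.0174 to 0.636 and BSC1 from 0.0197 to 0.748. SML1, the inhibitor of ribonucleotide reductase, had 1.11 and 0.828 in slh1-delta, against 2.13 and 1.76 in the ski2-labelled libraries and 1.05 and 1.12 in WT (-1.005, standard error 0.13, limma adjusted p = 0.00817). The uncharacterised YLR342W-A (-0.99) and YBL081W (-0.79) were lower too. PRM7 and BSC1 each passed in 2 of the fits that leave out 1 library, failing without the second slh1-delta library and without the first labelled ski2-delta. SML1 passed in 3, failing without the second slh1-delta library, and YLR342W-A and YBL081W passed in none.

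Over all 49 lower coding genes, the WT mean lay between the groups for 44 and nearer to slh1-delta for 22. Over the 22 higher ones it lay between for 18 and nearer to slh1-delta for 15. These positions are a description, and WT entered no test of this difference other than through the pooled spread.

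Proteasome genes lay slightly low, with 27 of 35 below 0 and a median of -0.09. Of the 35, 2 were called lower, against 0.594% over all features. RPT2, an ATPase of the proteasome's base, had densities of 0.199 and 0.156 in slh1-delta, against 0.442 and 0.367 in the ski2-labelled libraries and 0.330 and 0.290 in WT (-1.17, standard error 0.13, limma adjusted p = 0.00429). RPT1, another of these ATPases, was lower by -0.63 (0.09, limma adjusted p = 0.0123), and no gene of the list was higher. Among the fits that leave out 1 library, RPT2 failed without the second slh1-delta library, and RPT1 failed without that library and without the first labelled ski2-delta. Both also failed with spike-in factors and in the fit of the 4 libraries alone.

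Lists of genes that act with Slh1, Dbp1 and Ski2 were read beside the 1.35% called over all features. SKI2 itself was present in both groups. Of 21 genes of ribosome collision and quality control, the called ones were SLH1 itself and CDC48, the ATPase that extracts stalled nascent chains. CDC48 had densities of 2.88 and 2.39 in slh1-delta, against 4.59 and 3.999 in the ski2-labelled libraries and 3.04 and 3.73 in WT (-0.71, standard error 0.11, limma adjusted p = 0.0182). Of 29 translation initiation genes, DBP1 was higher, and FUN12, which is eIF5B, and TIF4631, a form of eIF4G, were lower. FUN12 had 1.32 and 1.10 in slh1-delta, against 2.01 and 1.71 in the ski2-labelled libraries (-0.62, standard error 0.10, limma adjusted p = 0.0182), and TIF4631 differed by -0.40 (0.07, limma adjusted p = 0.0312). CDC48 and FUN12 failed without the second slh1-delta library and without the first labelled ski2-delta, and TIF4631 failed in all 4 such fits. Of 19 genes of the Ski complex, exosome and Xrn1, limma called 0, with 4 at an unadjusted p under 0.05 and 1 called by limma-voom. In this list 16 lay below 0, and the median was -0.13. MTR4, the nuclear exosome's helicase, stood at -0.29 (adjusted p = 0.0764) and RRP6, its nuclease, at -0.26 (adjusted p = 0.172). Of 7 nonsense-mediated decay genes limma called 0 (2 at an unadjusted p under 0.05, 1 by limma-voom), with NMD2 at -0.54 (adjusted p = 0.0693) and EBS1 at -0.26.

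In central metabolism PYC2, a pyruvate carboxylase, was the only one of 19 genes listed for the tricarboxylic acid cycle to pass, at -0.42 (standard error 0.08, limma adjusted p = 0.0310), and it passed in none of the fits that leave out 1 library. Of 38 lists with at least 2 genes tested, 23 held no call by limma, with medians from -0.28 to 0.12. Over all features limma called 1.35%. Summed over the lists with no call, 75 of 437 members had an unadjusted p under 0.05 and limma-voom called 12. The smallest adjusted p in them was that of VTC2, of the vacuolar polyphosphate synthase, at -0.37 (0.08, limma adjusted p = 0.0525). GLK1, glucokinase, had 1.07 and 1.15 in slh1-delta, against 0.681 and 0.686 in the ski2-labelled libraries, and at 0.69 (0.17) it did not pass (limma adjusted p = 0.0930). FRE7, a metal reductase, had 0.333 and 0.364 in slh1-delta, against 0.0541 and 0.256 in the ski2-labelled libraries, whose replicates lie far apart, and at 1.51 (0.67) it did not pass (limma adjusted p = 0.329).

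Most calls among noncoding transcripts other than snoRNAs were cryptic unstable transcripts (CUTs), which the nuclear exosome degrades. Of 823 CUTs 20 were higher and 1 lower, with a median of 0.13. Of 1081 NUTs, transcripts that extend when nuclear termination by Nrd1 is lost, 8 were higher and 1 lower, with a median of 0.08. Of 1401 XUTs, which accumulate without the cytoplasmic nuclease Xrn1, 3 were higher and 1 lower, with a median of 0.08. The shares called were 2.43% higher for CUTs and 0.214% higher for XUTs, against 0.753% over all features. As deposited the CUT median was -0.29 and the XUT median -0.33, against -0.46 over all features, and spike-in factors gave medians of 0.04 and -0.01. Without the second slh1-delta library 1 CUT was higher, and 9 to 14 were without any other library. The CUT median was 0.07 without the second slh1-delta library, 0.20 without the first, 0.03 without the first ski2-labelled library and 0.20 without the second. With the length trend taken off, 12 CUTs were higher and the median was 0.03, and the XUT median was 0.02. NUT calls higher were 2 without the second slh1-delta library, 3 without the first, 9 without the first ski2-labelled library and 3 without the second. XUT calls higher were 0 without either slh1-delta library, 2 without the first ski2-labelled library and 4 without the second. Over the same 4 fits the XUT median was 0.02 to 0.12 and the NUT median 0.04 to 0.12, each lowest without the first ski2-labelled library.

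CUT311 had densities of 0.156 and 0.158 in slh1-delta, against 0.0288 and 0.0394 in the ski2-labelled libraries and 0.141 and 0.156 in WT (log2 difference 2.06, standard error 0.23, limma adjusted p = 0.00425). CUT496 had 1.84 and 2.88 in slh1-delta, against 0.586 and 0.702 in the ski2-labelled libraries and 1.89 and 2.88 in WT (1.83, standard error 0.23, limma adjusted p = 0.00701). Over the libraries outside the 2 compared groups, WT included, CUT311 ran from 0.0407 to 0.156 and CUT496 from 0.727 to 2.88. Low values were thus not particular to the ski2-labelled libraries. For both, slh1-delta was at the WT level, and among the fits that leave out 1 library both failed without the second slh1-delta library. CUT496 also failed in the fit of the 4 libraries alone (limma adjusted p = 0.0532). CUT716 (1.502, limma adjusted p = 0.0155) and CUT538 (1.54, limma adjusted p = 0.0444) were higher too, CUT538 on 36 reads in slh1-delta and 9 in the ski2-labelled libraries (ratio 2.77, interval 1.31 to 6.53). CUT169 passed on 15 reads in slh1-delta and 2 in the ski2-labelled libraries, a ratio of 5.19 (interval 1.21 to 46.8). These 3 each passed in 1 of the fits that leave out 1 library. Of the calls that were lower, CUT208 rests on 0 reads in slh1-delta and 3 in the ski2-labelled libraries, which is at the floor of 3 reads, so no fold is given. XUT1154 had 0.0188 and 0.0193 in slh1-delta, against 0.0418 and 0.0429 in the ski2-labelled libraries (-0.97, limma adjusted p = 0.0330), and NUT0318 differed by -0.65 (limma adjusted p = 0.0218). CUT208, XUT1154 and NUT0318 passed in none of those fits. The 3 higher XUTs, named after their values were seen, rest on few reads. XUT0691 had 26 reads in slh1-delta and 5 in the other group (ratio 3.60, interval 1.36 to 11.99), XUT1110 had 35 and 9 (2.69, interval 1.27 to 6.36), and XUT0848 had 4 and 0. Coordinates of these transcripts were not used here, so overlap with genes was not examined.

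Mitochondrially encoded features had the lowest class median, -0.57 over 23, with 1 higher (4.35%) and 3 lower (13.0%). Over all features these shares were 0.753% and 0.594%. The lower calls were 1 without the first slh1-delta library and 0 without any other library, with the median -0.36 without the second slh1-delta library and -0.73 without the first. With the length trend taken off, 0 were lower and the median was -0.39. The 3 lower ones, AI1 (-0.67), AI2 (-0.65) and AI3 (-0.65), named after their values were seen, are intron reading frames of COX1 that begin at the same position, 13818, so they share reads and count as 1 signal. COX1, AI4 and AI5_ALPHA begin there too, and COB, BI2, BI3 and BI4 all begin at 36540. The class median and shares above thus count shared reads more than once. The 8 genes listed as mitochondrially encoded proteins had a median of -0.28, with 0 called. COX1 itself had densities of 0.475 and 0.364 in slh1-delta, against 0.629 and 0.681 in the ski2-labelled libraries, and at -0.65 (0.16) it did not pass (limma adjusted p = 0.0986). ATP6 had 1.14 and 0.696 in slh1-delta, against 1.76 and 3.31 in the ski2-labelled libraries, whose replicates lie far apart. At -1.43 (0.37) ATP6 did not pass (limma adjusted p = 0.104). OLI1, an ATP synthase subunit, stood at -0.12 (0.08). VAR1, the ribosomal protein encoded in mitochondria, stood at 0.95 (0.21, limma adjusted p = 0.0723) and did not pass. The other call was Q0255, at 0.80, which was higher. The 4 features of the 2-micron plasmid stood at 0.11 to 0.28, with 3 at an unadjusted p under 0.05 and 0 called by limma or limma-voom.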

How the data were processed

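Values as deposited by the authors are a signal, a normalized density per feature by the table's own name, for 12 libraries; 6 mean columns were not used. Genome build R64, DESeq2, featureCounts 2.0.0, HISAT2 2.2.0 and Trim Galore are listed per the submitters' processing notes, which give them no order. The kit marks strand, per the labels' protocols, and whether counting used it is not given in the sources used here. Whole reads were recovered from the steps of each column and a search for each feature's length (100% of 124137 values above 0 within 1e-05 reads), which rests partly on that search.

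Densities were rescaled by median ratios over 5917 protein-coding rows, and log2(density + 0.00519) was fitted with limma 3.58.1 (R 4.3.3, trend, Benjamini-Hochberg), all 12 libraries in 1 model, for 9433 features whose mean exceeded that pseudocount, the 10th percentile of values above 0. Fold changes of low features are understated on this scale. In data simulated for this comparison, over 9433 features, 89.6% of 2-fold changes were recovered, and 9 unchanged features were called, 6.04% of the calls. The changes were placed only in features above a floor of reads. The noise was independent, of the same size for every feature and without a length trend. These shares therefore need not hold for features of few reads or for the real libraries. Named were the helicase genes, up to 12 protein-coding genes each way by size of difference above the 25th percentile of density, up to 5 noncoding ones each way, up to 3 called members of each list (up to 2 by p where none was called), and neighbours of SLH1 and DBP1. Members and lists were chosen with earlier results of these data known. By name, 5995 rows matched RefSeq.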

Additional observations from a re-analysis of the deposited data

How the results depend on the processing

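The fit gave 71 higher and 56 lower of 9433. Values as deposited gave 4646 lower, spike-in factors 14 and 16, a filter at 10 times the pseudocount 109 higher, the 4 libraries alone 12 and 3, and limma-voom on recovered reads 132 and 116. With the length trend removed, chosen after seeing the data, 45 were higher. Leaving out 1 library gave 7 to 49 higher and 4 to 28 lower. Other pseudocounts, no filter, quantile normalization, factors from the 4 libraries, and fits without WT or dhh1-delta kept both counts within 1.5 times. The replicate block gave 50 higher and 41 lower. Whether a replicate number marks a batch is not given in the sources used here. Deviations of same-numbered slh1-delta and ski2-labelled libraries correlated at 0.14, and over 15 strain pairs from -0.30 to 0.19. These values cannot decide it, because some strains could share a batch or be numbered in another order. Of the genes named by rule, called or not, signs turned as deposited in TEF1 (-0.35), TEF2 (-0.36), EDC2 (-0.057), RPL41A (-0.030), RPS28A (-0.15), MRP51 (-0.080), MRP8 (-0.10), HOR7 (-0.086), STF2 (-0.11), YGP1 (-0.30), HSP10 (-0.26), GRX2 (-0.27), COX5B (-0.053), ATO3 (-0.32), ENO1 (-0.22), PHO5 (-0.15), COT1 (-0.29), CTH1 (-0.31), CTR2 (-0.36), SAM3 (-0.23), MET14 (-0.21), ASC1 (-0.17), ERG28 (-0.29), STE2 (-0.38), HTA2 (-0.29), HIS3 (-0.39), AIM18 (-0.030) and EFG1 (-0.39). Quantile normalization turned TEF1 (-0.19), TEF2 (-0.21) and ASC1 (-0.058). YTA7 turned without ski2-labelled replicate 1 (0.0032) and with the length trend removed (0.0086), and EFG1 without slh1-delta replicate 2 (-0.14) and without ski2-labelled replicate 1 (-0.14), within -0.14 to 0.43 over the libraries left out. The cause was not tested, except that scaling alone moves the median of all features to -0.46. Depth limits features of few reads: the median CUT had 7.75 reads a library.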

Other observations

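The ASP3 genes encode cell wall asparaginase II and are near-identical copies on chromosome XII. The values of ASP3-3 (482549 to 483637 in build R64) were looked at after the data were seen. It had 273 and 296 reads in slh1-delta, against 2 and 1 in the ski2-labelled libraries and 4 and 6 in WT. The ratio of slh1-delta to the ski2-labelled libraries was 131 (95% counting interval 44.7 to 638), but limma gave an adjusted p = 0.0789 and it did not pass (log2 difference 4.995, standard error 1.17). The libraries labelled dbp1-delta (4 and 108 reads) and dhh1-delta (108 and 3) held raised reads in only 1 replicate each, while ecm32-delta had 2 and 4. As densities these raised values were 0.110 and 0.0843, lower than the 0.222 and 0.211 of slh1-delta. ASP3-4 (486201 to 487289) had nearly the same reads, 272 and 296 in slh1-delta against 2 and 2 in the ski2-labelled libraries. ASP3-1 had 6 and 4 reads in slh1-delta and 6 and 4 in the ski2-labelled libraries, and ASP3-2 had 3 and 2 against 0 and 2. How reads were split among the copies is not given in the sources used here.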
